A study of Mus musculus with 6 samples.

Results

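P4 cells are mammary epithelial cells sorted from virgin wild type FVB/N-J mice as lineage-negative (Lin-), CD24-positive and high in CD29 (CD24+CD29hi), a gate that the labels call enriched for mammary stem cells (MaSC). Their microRNA (miRNA) repertoire was read from the 3 P4 arrays of the series as every mouse miRNA that Agilent's software called detected on all 3. These were 309 of the 1247 mouse miRNAs on the array, and they are called members here. A further 54 miRNAs were detected on 2 P4 arrays, 42 on 1 and 842 on none. The series holds 6 one-colour Agilent arrays in all, 3 of P4 and 3 of P5, the Lin-CD24+CD29lo fraction from wild type virgin mice of the same strain, which is enriched for luminal cells. The labels do not say whether replicates came from separate mice or sorts, so the spread between arrays may be technical. They give neither the age of the mice nor the cells sorted per array. All mice were wild type and carried no transgene by their labels.

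A miRNA is cut from a hairpin precursor, from its 5′ arm (5p), its 3′ arm (3p) or both, and represses messenger RNAs that pair with its seed, bases 2 to 8. miRNAs that share a seed form a family and can repress overlapping sets of messenger RNAs. Basal mammary cells are the outer, contractile and smooth-muscle-like layer of the ducts, and regenerative stem cell activity of the gland has been assigned to this layer. In sorted RNA, fewer cells of a type and less RNA per cell cannot be told apart. Each level here is the brightness of its own probes, so an order of levels is an order of signal and not of molecule numbers.

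The sequences that carry the signal fall into 3 sets, all taken from RefSeq (GRCm38.p6) with the seed in capitals. RefSeq's table held 253 of the 309 members. The first set shows 5 of the 6 brightest members, because letters shared by 3 of them recur below.
miR-3963: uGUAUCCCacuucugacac
miR-6366: aGCUAAGGggcccggggagcca
miR-3968: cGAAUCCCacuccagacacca
miR-5100: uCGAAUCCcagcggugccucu
miR-6412: uCGAAACCauccucagcuacua

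The second set holds long-known miRNAs that led the rest of the P4 signal or marked P4 cells, with each seed partner beneath its brighter relative.
miR-125b-5p: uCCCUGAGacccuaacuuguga
miR-125a-5p: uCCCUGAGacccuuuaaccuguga
miR-205-5p: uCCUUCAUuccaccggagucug
miR-126-3p: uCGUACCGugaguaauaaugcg
miR-26a-5p: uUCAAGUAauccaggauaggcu
miR-26b-5p: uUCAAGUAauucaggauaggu
miR-204-5p: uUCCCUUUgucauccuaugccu
miR-211-5p: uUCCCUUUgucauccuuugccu

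The third set is the core of the let-7 family, whose members are so alike that their probes may read one another.
let-7a-5p: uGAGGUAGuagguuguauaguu
let-7c-5p: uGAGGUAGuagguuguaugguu
let-7f-5p: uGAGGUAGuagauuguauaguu
let-7g-5p: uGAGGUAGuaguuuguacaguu
let-7b-5p: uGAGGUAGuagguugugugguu
let-7d-5p: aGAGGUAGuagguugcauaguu

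The 5 miRNAs given as markers of the population were all members. Lists here were chosen with earlier results of these data known, so their levels are no independent check of the label. miR-143-3p and miR-145a-5p come from one transcript that is known for contractile genes of smooth muscle, miR-205-5p is a miRNA of stratified and basal epithelia, miR-125b-5p is the relative of C. elegans lin-4, and miR-204-5p is an epithelial miRNA. miR-143-3p had processed signals of 2660, 4029 and 2233 (fluorescence units) on P4 replicates 1 to 3, against 199.6, 157.4 and 88.1 on P5 arrays. miR-205-5p had 2468, 3366 and 2113 on P4 arrays, against 782.2, 728.5 and 300.2 on P5 arrays. miR-204-5p had 233.4, 566.0 and 289.6 on P4 arrays and was detected on no P5 array. For each of the 5, every P4 array was above every P5 array, and the populations did not overlap, in either order, for 42.2% of the 370 miRNAs tested. Each level was divided by its array's 75th percentile signal over the miRNAs detected on all 6 arrays, and log2 levels were compared with limma. miR-204-5p entered the fit through its P4 detection alone and is given no test. The other 4 were higher in P4, with Benjamini-Hochberg adjusted p-values between 8.05e-06 and 0.000298 in limma's fit over all 370 miRNAs. Of other miRNAs of stratified epithelia, miR-203-3p had 16.8, 37.1 and 15.3 on P4 arrays, against 307.9, 273.5 and 119.8 on P5 arrays. miR-31-5p had 68.0, 86.1 and 56.7 on P4 arrays, against 95.7, 60.0 and 62.5 on P5 arrays, with overlap before scaling. On the scaled log2 level miR-31-5p had -1.45, -2.15 and -2.27 on P4 arrays, against -2.46, -2.93 and -2.33 on P5 arrays, with none, and did not pass the test (adjusted p = 0.129, limma). In the fit over all miRNAs 27.8% were called at an adjusted p under 0.05, 13.8% higher and 14.1% lower in P4. This fit took miRNAs detected on all 3 arrays of at least 1 population, so some entered through 1 population alone. A fit of the 293 detected on all 6 arrays called 71, with 36 higher and 35 lower in P4. The split depends on the scale, with 51 higher and 52 lower in the main fit of 370. It was 23 and 77 without scaling, 41 and 96 after scaling to the summed signal, 55 and 25 with normexp background correction, and 31 and 81 in the authors' processed values. The median difference over all miRNAs moved from the main scale by -0.64 log2 without scaling, by -0.29 with the summed signal and by 0.29 with normexp.

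Most of the brightness of P4 RNA lay in a handful of late entries of the miRNA registry miRBase, in which numbers are given in order of registration. miR-3963 alone held 24.6% ± 2.33 of the members' summed signal (SD, n = 3 arrays, as for every share below) and miR-6366 held 22.9% ± 0.57. miR-3968 held 8.52% ± 0.63 and miR-5100 held 4.12% ± 0.28. Together with miR-5097, miR-6412 and miR-6243 these filled the first 7 places. The 95 members with a number above 1000 held 72.6% ± 1.29 of the P4 signal and made up 7 of the 10 and 9 of the 20 brightest members. The 3 brightest members were enough for 50% of the signal on every P4 array, and 50 ± 4.58 members made up 90%. The top 10 held 70.4% ± 1.80 and the top 20 held 79.5% ± 1.40.

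**Figure D1:**
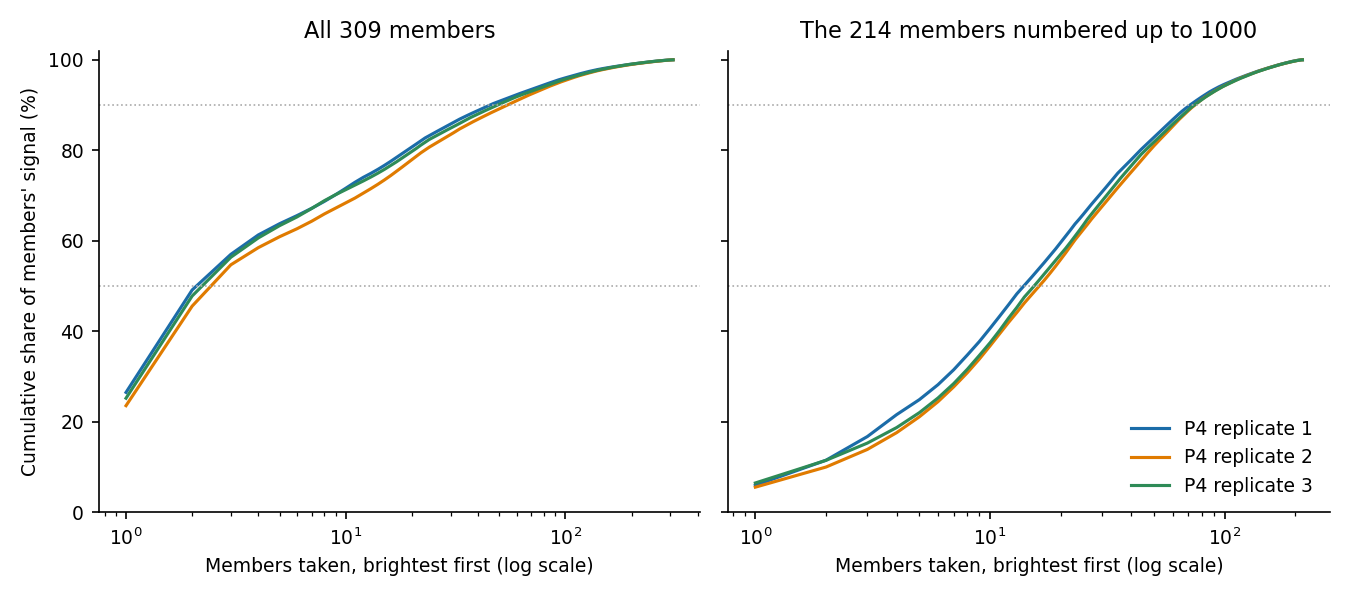
Cumulative share of the members' signal (vertical axis, percent) against the number of members taken from the brightest down (horizontal axis, log scale), 1 line per P4 array; dotted lines mark 50% and 90%. With all 309 members (left) each line passes 50% at the third member, and among the 214 members numbered up to 1000 (right) it takes 14 to 17 members.

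The brightest entries were bright in P5 RNA too. miR-3963 had processed signals of 50216, 68972 and 65811 on P4 arrays, against 79517, 69565 and 64550 on P5 arrays. miR-6366 had 42843, 73963 and 58901 on P4 arrays, against 76624, 60560 and 58195 on P5 arrays. In both cases the populations overlapped before scaling. Scaled log2 levels of miR-6366 were 7.85, 7.60 and 7.75 on P4 arrays, against 7.19, 7.05 and 7.53 on P5 arrays, so every P4 array stood above every P5 array. Those of miR-3963 were 8.08, 7.49 and 7.91 on P4 arrays, against 7.24, 7.25 and 7.68 on P5 arrays, with overlap. The differences of 0.48 for miR-6366 (adjusted p = 0.0905, limma) and 0.44 for miR-3963 (adjusted p = 0.161) did not pass the test, which does not show that the levels are alike. Over all miRNAs detected on an array, entries numbered above 1000 held 73.1%, 71.0% and 73.4% of the signal on P4 arrays, against 67.4%, 69.8% and 71.5% on P5 arrays. P4 was 2.94 percentage points higher on average, with 1 P5 array inside the P4 range, and an exact two-sided permutation test gave p = 0.2, where 3 arrays against 3 cannot go below 0.1. This split by number was chosen after the signals were seen. The top 10 of each array held 71.5%, 68.1% and 71.1% on P4 arrays, against 63.9%, 64.7% and 68.9% on P5 arrays (exact permutation p = 0.2).

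Some of the bright late entries also share letters, though miR-6366 and miR-6412 lack the stretch AUCCCA. miR-5097 and miR-6243 had no RefSeq sequence to search. AUCCCA, searched in the mature strand only, occurs in 4 of the 253 members with a sequence (1.58%) and in 0 of the 768 array miRNAs with a sequence that were not members. The 4 are miR-3963, miR-3968, miR-5100 and, far dimmer, miR-191-5p. The longer CGAAUCC, which overlaps it, is in miR-3968 and miR-5100 and in none of the 768. These letters were searched for after the signals were seen. Shorter stretches were found in both sets, UCCCA in 11 of the 253 and 17 of the 768, and CGAA in 8 of the 253 and 10 of the 768. Median GC content was 62.5% for members numbered above 1000 and 47.6% for those numbered up to 1000, and the first base was U in 32.9% of those above 1000 and in 46.4% of those up to 1000.

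Because the late entries hold most of the signal, the account of levels from here on uses the 214 members numbered up to 1000, and shares are of their summed signal. In this set 15.7 ± 1.53 miRNAs made up 50% of the signal and 74.0 ± 1.73 made up 90%, the top 10 held 38.3% ± 2.07, and the top 20 held 57.5% ± 1.93. miR-125b-5p came first with 5.99%, 5.58% and 5.0% on P4 replicates 1 to 3. miR-143-3p followed with 5.23%, 4.45% and 3.23%, and miR-145a-5p with 5.54%, 3.89% and 3.30%. miR-126-3p, a miRNA of endothelial cells, held 2.37%, 3.12% and 6.51%, and miR-205-5p held 4.85%, 3.71% and 3.06%. Replicate 3 was the lowest of the 3 arrays for miR-143-3p, miR-145a-5p and miR-205-5p and the highest for miR-126-3p. The ranges of miR-143-3p, miR-145a-5p, miR-126-3p and miR-205-5p overlap, so their order is not settled, and on replicate 3 miR-126-3p stood above miR-125b-5p. Without replicate 3, the share of miR-126-3p in all members' signal was 0.769%, against 1.09% with it.

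**Figure D2:**
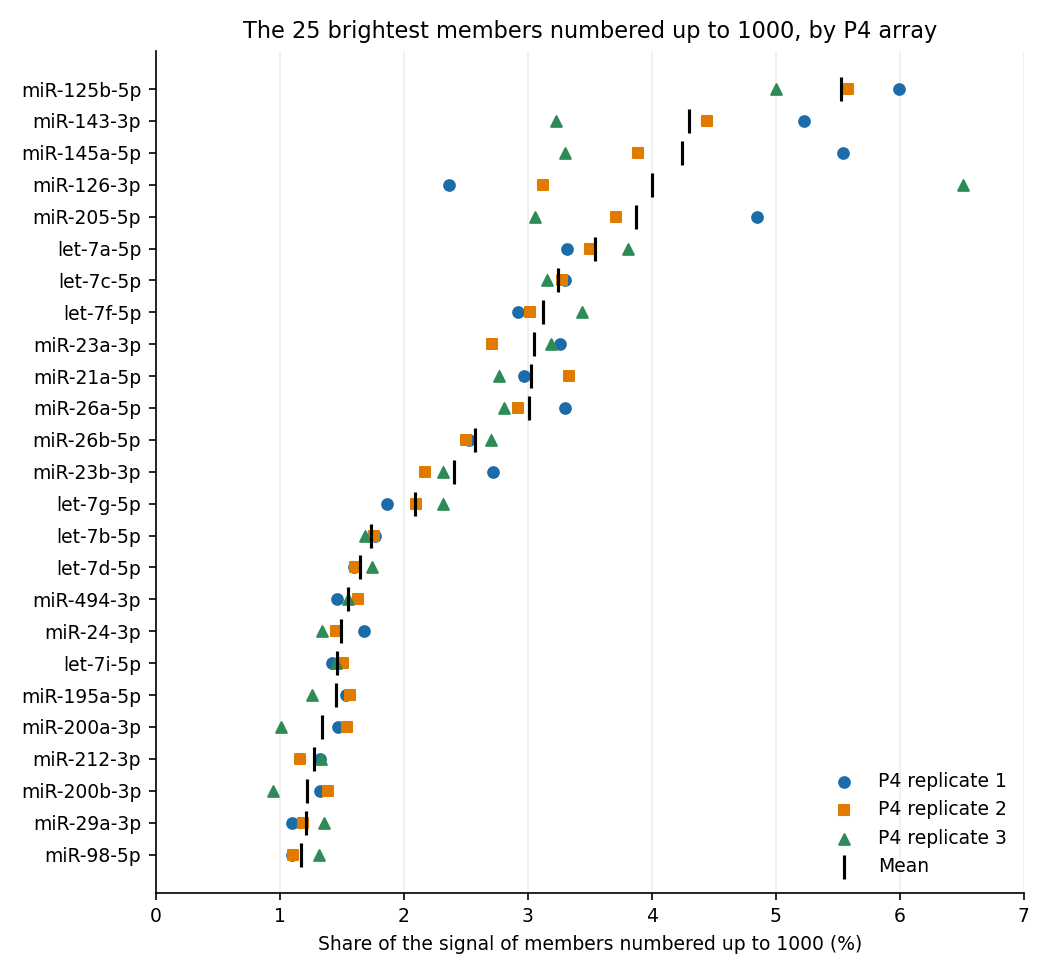
Share of the signal of members numbered up to 1000 (horizontal axis, percent) for the 25 brightest of them (rows), with 1 symbol per P4 array and a black bar for the mean. miR-126-3p spans 2.37% to 6.51%, while let-7c-5p stays between 3.16% and 3.30%.

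Below these 5 came let-7a-5p (3.54% ± 0.25), let-7c-5p (3.24% ± 0.08), let-7f-5p (3.12% ± 0.27), miR-23a-3p (3.05% ± 0.30), miR-21a-5p (3.02% ± 0.29) and miR-26a-5p (3.01% ± 0.26). Array values overlap from let-7c-5p to miR-26a-5p, so these have no order beyond their spread. miR-21a-5p is induced in many tumours, and miR-26a-5p and miR-23a-3p are broadly expressed. miR-26b-5p, miR-23b-3p, let-7g-5p and let-7b-5p followed, with 2.57% to 1.74%. On all members' signal, 18 miRNAs were in the top 20 of every P4 array and 8 in the top 10.

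Summed by seed, the 309 members formed 250 families, 30 of them with 2 or more members and 89 members in all. Of the 309, 7 members without a RefSeq sequence were placed by their family name, and 49 with neither were counted alone. Families of 2 or more held 17.5% ± 1.16 of all members' signal but 63.1% ± 1.28 of the signal of members numbered up to 1000. The let-7 family, first known for developmental timing in C. elegans, was the largest of these, with 10 members and 17.9%, 18.5% and 19.6% of that signal. Its brightest member, let-7a-5p, gave 19.0% of the family's signal, and let-7a-5p differs from let-7c-5p, let-7e-5p and let-7f-5p by 1 base each, so the division among members is uncertain. The miR-125 family held 6.38% ± 0.51, of which miR-125b-5p gave 86.6%. The miR-26 family held 5.58% ± 0.21 and the miR-23 family 5.46% ± 0.55, each split nearly evenly, with 53.8% from miR-26a-5p and 56.0% from miR-23a-3p. The miR-15/16/195 family, which represses cyclins and BCL2, held 4.21% ± 0.18 over 7 members, led by miR-195a-5p. The miR-30 family held 2.89% ± 0.18 over 5 members and the miR-29 family, which represses collagens, 2.81% ± 0.33 over 3. The 5 largest families held 40.4% ± 1.23 and the 10 largest 59.7% ± 1.76. Over all members the 5 largest families were 4 lone late entries and let-7, with 65.3% ± 1.24.

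Families were also set against P5, which the choice of members did not use. miRNAs detected on all arrays of either population gave 307 families, of which 33 had 2 or more miRNAs. limma called 10 of the 33 higher in P4 and 10 lower, and 13 did not pass. The families of miR-204-5p, miR-133b-3p and miR-199b-5p are among the 10 higher although they entered through P4 detection alone. Over all 307 families 22.8% were called, 11.4% in each direction, and with miRNAs detected on all 6 arrays 45 of 239. The median difference was 0.07 log2 over the 33 and 0.01 over the 307. Families of several miRNAs pool more signal than lone ones, and differ from them in depth too.

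Among families higher in P4, miR-204-5p and miR-211-5p, which lie in introns of channel genes and share the seed printed above, summed to signals of 326.3, 789.8 and 418.2 on P4 arrays. Neither was detected on any P5 array, and the family was at least 69.1-fold higher in P4. Such a bound sets each P5 array at its own scaled sum or at the detection floor, whichever is higher. A family or arm that entered the fit through its P4 detection alone had to differ, so no p-value is given for it. The miR-199 pair, a mesenchymal family led by miR-199b-5p, had 89.4, 252.3 and 340.5 on P4 arrays, against 30.1, 31.7 and 16.4 on P5 arrays. Its log2 difference was 3.64. This pair too entered through P4 detection alone, as miR-199a-5p was detected on 1 P5 array and miR-199b-5p on 2. The P4 arrays were all above those of P5, and replicate 3 was the highest of them before and after scaling. With Agilent's summed signal the miR-199 difference was 5.97 and its call was lost.

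The miR-133 pair, miRNAs of striated muscle, had 56.5, 74.4 and 43.4 on P4 arrays, whereas P5 arrays detected neither, and the pair was higher in P4 by at least 9.47-fold. The miR-125 family had 3504, 5778 and 4062 on P4 arrays, against 1531, 996.0 and 999.8 on P5 arrays, a log2 difference of 2.57 (SE 0.20). Only miR-125b-5p passed within it (log2 3.57), whereas miR-125a-5p differed by 0.50 (adjusted p = 0.138, limma); the difference between the miRNAs was not tested. The pair of miR-221-3p and miR-222-3p, repressors of the cell cycle inhibitor p27, differed by 2.38 (SE 0.20), the miR-99/100 family by 1.48 (SE 0.16) and the miR-23 pair by 1.16 (SE 0.21, adjusted p = 0.00702). The miR-23 call was lost without scaling (adjusted p = 0.233, limma). It was also lost with slide row as a block (the row block), which sets P4 against P5 replicate 1 alone. The miR-27 and miR-24-5p pairs, from the same transcripts as miR-23, passed as well, with 0.89 and 0.79.

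Among families lower in P4, the miR-148/152 family had 173.7, 413.4 and 265.0 on P4 arrays, against 3375, 2378 and 1584 on P5 arrays, a log2 difference of -2.47 (SE 0.16, adjusted p = 4.32e-05, limma). miR-148a-3p, a miRNA abundant in secretory mammary epithelium, carried most of this with 61.0, 191.2 and 100.3 on P4 arrays, against 3005, 2127 and 1370 on P5 arrays. In P4 the family was instead led by miR-152-3p. The miR-34 pair, targets of p53, differed by -2.13 (SE 0.16). Of this pair miR-34b-5p was detected on all 6 arrays. Its relatives miR-34a-5p and miR-34c-5p were each detected on 2 P4 arrays. The second miRNA of the pair thus entered the sum through P5 detection alone, which favours a lower P4 level. The miR-141/200a and miR-200b/200c/429 families, which repress the ZEB factors and so hold epithelial character, differed by -1.34 (SE 0.24) and -1.27 (SE 0.21). The miR-141/200a call was lost with the row block (adjusted p = 0.0704) and without P5 replicate 3 (0.0531). Both were nonetheless bright P4 families, with summed signals of 1022 to 2201 on replicates 1 and 2 and of 888.5 and 1114 on replicate 3. The miR-146 pair differed by -1.28, a call lost without P5 replicate 3 (adjusted p = 0.0521), the miR-19 pair by -1.27 and the miR-17/20/93/106b family by -1.14, the last 2 from clusters tied to cell proliferation.

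Of the 6 brightest P4 families with 2 or more miRNAs, let-7 and miR-26 did not pass. let-7 summed to 9108, 16779 and 13566 on P4 arrays, against 30672, 22827 and 19552 on P5 arrays, with a log2 difference of -0.25 after scaling (adjusted p = 0.262, limma). It was called lower with quantile normalization (adjusted p = 0.0429) and with scaling to the summed signal (0.0223). miR-26 differed by 0.25 (adjusted p = 0.451) with the other sign without scaling, under quantile normalization and with scaling to the summed signal, and miR-29 by -0.41 (adjusted p = 0.258). The miR-15/16/195 family passed with 0.48 (adjusted p = 0.0365), but its difference was -0.18 without scaling. The miR-15/16/195 call was lost in 9 of 15 alternatives, with the slide row as a block among them (adjusted p = 0.197). The miR-30 family passed with -0.64 (adjusted p = 0.0294), a call lost in 6 of 15 alternatives, again with the row block (0.126).

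**Figure D3:**
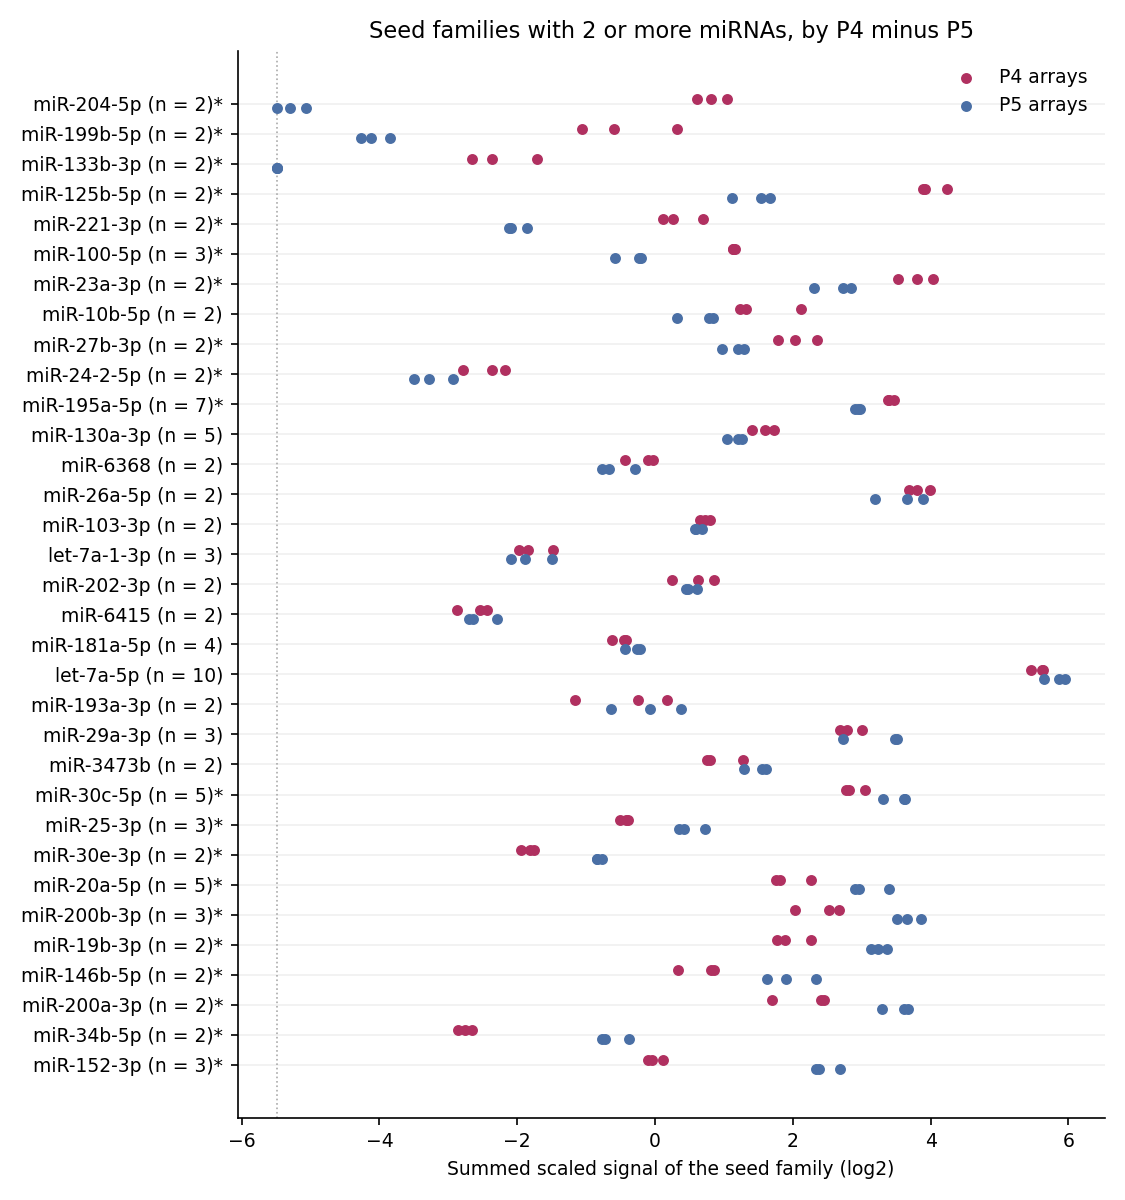
Summed scaled signal (horizontal axis, log2) of the 33 seed families with 2 or more miRNAs, named by their brightest P4 member. P4 arrays are drawn above P5 arrays in each row. An asterisk marks an adjusted p under 0.05 in limma and the dotted line the floor. The miR-204-5p, miR-133b-3p and miR-199b-5p families entered through P4 detection alone. Rows run from miR-204-5p, whose P4 arrays are all above P5 with P5 at or near the floor, to miR-152-3p, whose P4 arrays are all below P5.

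Many members lie beside one another in the genome. By RefSeq positions, 55 of the 253 located members lay in 19 clusters whose hairpins were within 10 kb of a neighbour. The brightest was the let-7a-1, let-7f-1 and let-7d cluster (chr13:48536024-48538260, GRCm38.p6), with 6 members and 2.31% of all members' signal. The let-7c-2 and let-7b cluster (chr15:85706616-85707400) held 1.38% and the miR-23a, miR-27a and miR-24-2 cluster (chr8:84208563-84208860) 1.04%. let-7a, let-7c and let-7f are made at further sites too, and their signal cannot be assigned to one. The miR-17-92 cluster (chr14:115043684-115044496) had 7 members and 0.77%, most of it from miR-19b-3p.

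Arms of a hairpin were unequal in P4. Of 206 hairpins with a member, 34 had both arms among the members, 84 only the 5p arm and 88 only the 3p arm. In 158 of the others, the second arm was detected on no P4 array. Where both were members, 17 were led by the 5p and 17 by the 3p arm, and the leading arm was the same on every P4 array in 30. Arms stood within 2-fold of each other in 11 and more than 10-fold apart in 12, with a median of 3.90-fold. As these are different probes, a ratio near 1 does not show equal amounts.

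The most unequal hairpin was miR-24-1, whose 5p arm had 7.9, 17.2 and 9.4 against 853.0, 1318 and 929.0 for miR-24-3p, a log2 ratio of 5p over 3p of -6.55 ± 0.26 (SD, n = 3 arrays). miR-24-3p also comes from miR-24-2, so this 3p signal has more than 1 source. let-7f-1 (6.49 ± 0.45), let-7i (6.35 ± 0.47) and let-7a-1 (6.22 ± 0.18) leaned to 5p and miR-29a (-6.31 ± 0.13) to 3p. Their dimmer arms were faint, with 22.9, 29.5 and 19.7 for let-7f-1 and 9.1, 23.0 and 8.8 for let-7i. Those of let-7a-1 had 21.8, 48.8 and 31.9 and those of miR-29a 7.4, 12.3 and 12.4. The size of these ratios therefore rests on signals near the edge of detection. At the other end miR-338 had a ratio of -0.05 ± 0.11, followed by miR-3058 (0.19 ± 0.57), miR-149 (-0.19 ± 0.39), miR-1897 (-0.24 ± 0.20) and miR-140 (0.61 ± 0.10). The leading arm of miR-338, miR-3058, miR-149 and miR-877 changed between P4 arrays.

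**Figure D4:**
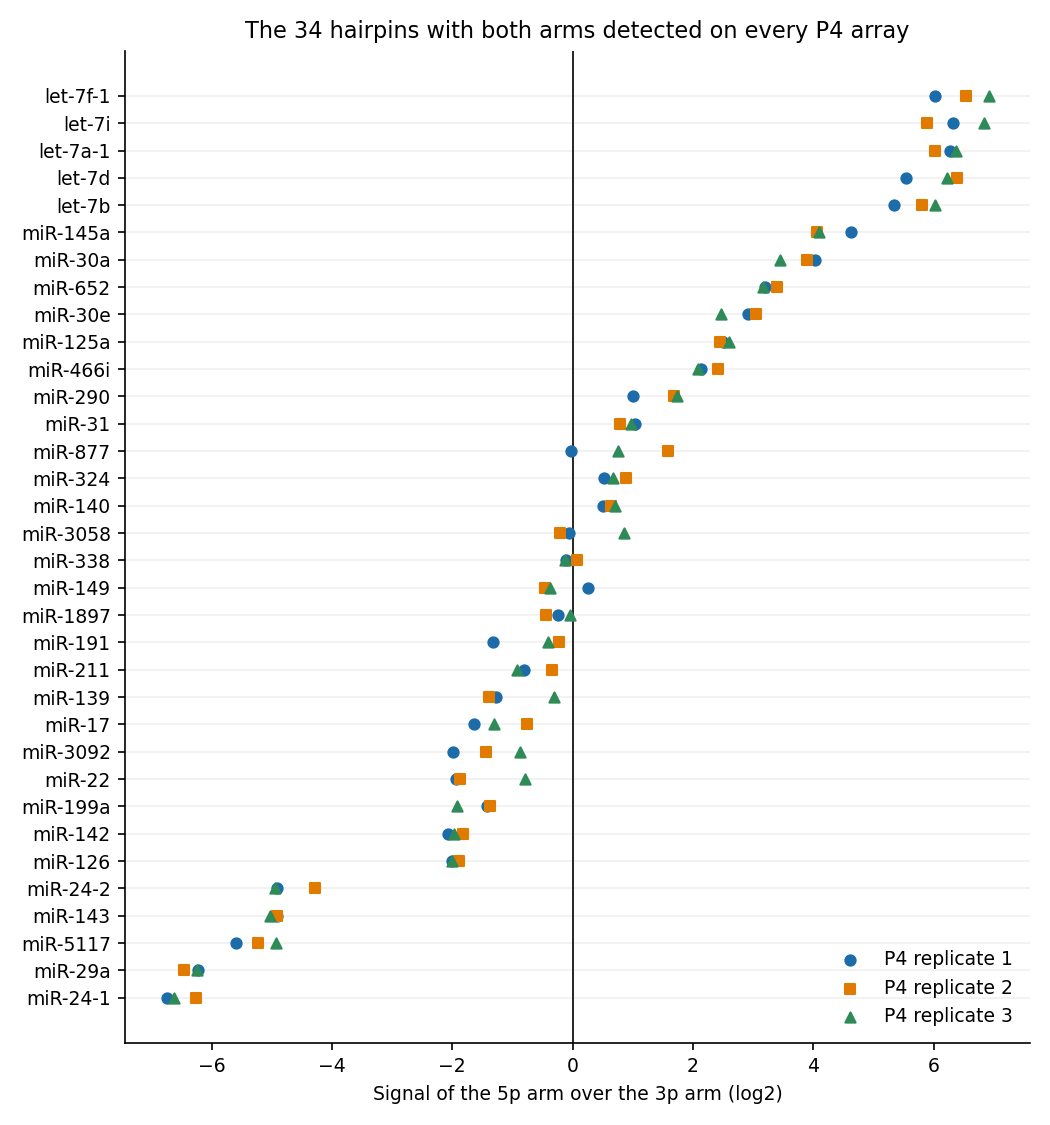
Signal of the 5p arm over the 3p arm (horizontal axis, log2) for the 34 hairpins with both arms among the members, with 1 symbol per P4 array; the vertical line marks equal signal. Ratios run from -6.55 for miR-24-1 to 6.49 for let-7f-1, and 30 hairpins keep all 3 symbols on 1 side of the line.

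Arm ratios were set against P5 for the 44 hairpins whose arms were each detected on all arrays of at least 1 population, and limma called 8 (18.2%). Both arms were detected on all 6 arrays in only 2 of the 8, let-7b and miR-191. The 3p arm of let-7b was faint, with unscaled signals of 22.1, 28.5 and 18.1 on P4 arrays and all P5 signals inside that range. Its 5p arm had a lower unscaled signal on every P4 array than on every P5 array. The size of the let-7b ratio therefore rests on 3p signals near the edge of detection. The let-7b ratio was 5.34, 5.81 and 6.02 log2 on P4 arrays, against 7.31, 7.13 and 6.66 on P5 arrays, so P4 was 1.31 lower with no overlap (SE 0.25, adjusted p = 0.00785). This call was lost without P4 replicate 2 (adjusted p = 0.052) and with the row block (0.0531). The miR-191 ratio was -1.32, -0.23 and -0.41 on P4 arrays, against 1.00, 0.70 and 0.27 on P5 arrays (adjusted p = 0.03), with signals under 40 on every array. The miR-191 call was lost in 10 of 13 alternatives, and in a fit of the 27 hairpins with both arms on all 6 arrays its adjusted p was 0.108.

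Of the further called ratios, 5 rest on an arm that 1 population lacked, and that of miR-150 on an arm detected on 2 P4 arrays. In miR-338, the 5p arm had 30.6, 63.2 and 53.1 on P4 arrays, against 83.3, 81.4 and 57.3 on P5 arrays. Its 3p arm had 32.9, 59.8 and 57.9 on P4 arrays and was detected on no P5 array, so the ratio was at least 7.73-fold lower in P4. In miR-211, the 5p arm had 92.9, 223.8 and 128.6 on P4 arrays and was detected on no P5 array, while the 3p arm had 162.6, 282.8 and 245.3 on P4 arrays, against 448.9, 507.8 and 324.5 on P5 arrays. The miR-211 ratio was at least 27.6-fold higher in P4 and that of miR-139, whose 5p arm no P5 array detected, at least 5.74-fold higher. miR-150 differed by 2.23 log2, with its 3p arm on 2 P4 arrays, and its call was lost in 4 of 12 alternatives. For miR-143 and miR-340 the undetected arm leaves the direction of the difference unknown.

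Spread between P4 arrays was small for most members. The median SD of log2 levels was 0.23 (median 0.22 for the same miRNAs on P5 arrays), 89.6% of members stayed under 0.5, and 2 members exceeded 1. It was 0.33 over the 78 dimmest members and 0.20 over the 77 brightest. Levels under the detection floor were set to the floor, which can only lower the SD of dim members. The lowest SD among the 78 was 0.0. Between P4 arrays, levels of the 309 members correlated with Spearman's rho of 0.978, 0.951 and 0.968, which describes arrays that share slide and probes. Repeat spots of a miRNA's brightest probe within an array had a median CV of 8.50%, against 16.2% between arrays after scaling.

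Among the 155 brighter members the steadiest were miR-100-5p (SD 0.01), miR-494-3p (0.03), miR-378d (0.03), miR-99a-5p (0.03) and miR-3102-5p (0.03). miR-100-5p and miR-99a-5p share a seed and are sequence relatives. The most variable was miR-142-3p, a miRNA of blood cells, with scaled log2 levels of -1.24, -0.24 and 1.08 on P4 replicates 1 to 3 (SD 1.17). miR-150-5p, found in mature lymphocytes, had unscaled signals of 35.8, 95.5 and 157.6 (SD 0.83 on the scaled log2 level). miR-199b-5p (SD 0.82), miR-199a-3p (0.80) and miR-322-5p (0.80) followed. All 5 were highest on replicate 3 and lowest on replicate 1. The epithelial miR-141-3p ran the other way, with 0.56, 0.74 and -0.54 (SD 0.69).

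**Figure D5:**
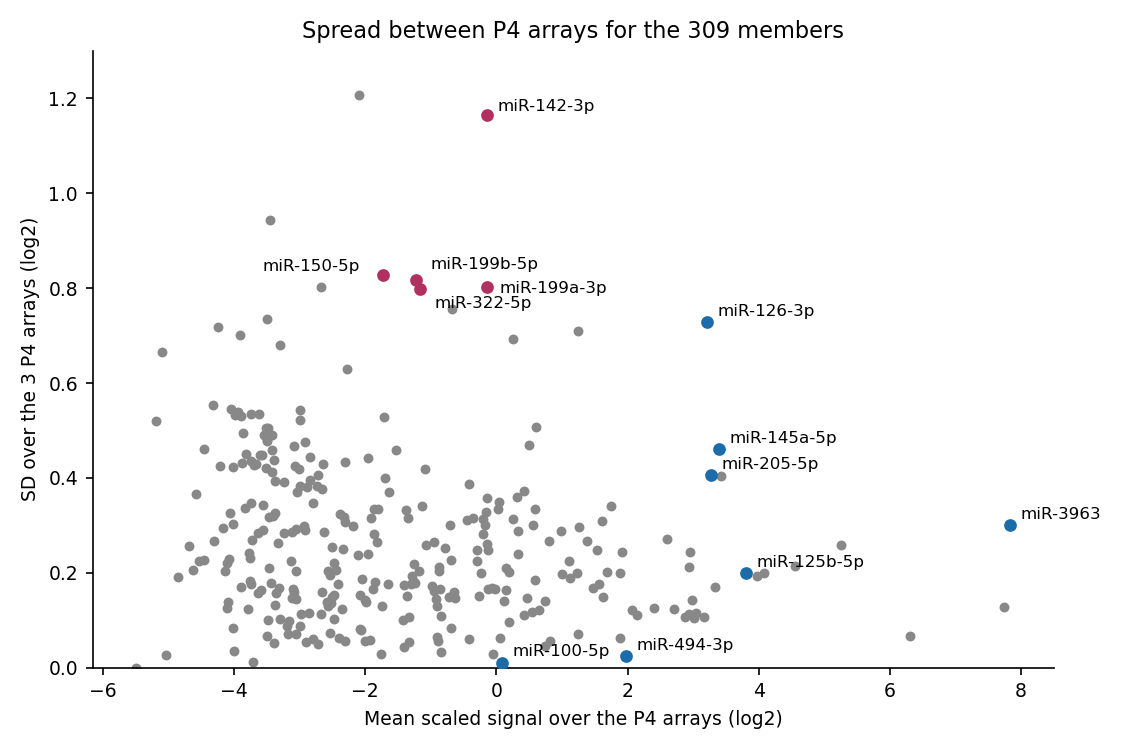
SD over the 3 P4 arrays (vertical axis, log2) against mean scaled signal (horizontal axis, log2) for the 309 members; red points are the 5 most variable of the brighter members and blue points other named miRNAs. miR-142-3p stands at 1.17 and miR-126-3p at 0.73, while miR-100-5p and miR-494-3p lie near 0.

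Several lists of miRNAs known from other cell types differed between P4 arrays. The endothelial arms miR-126-3p and miR-126-5p were both members, with a summed scaled level of 8.09, 9.39 and 20.6 on P4 arrays, against 2.32, 1.92 and 0.77 on P5 arrays. All 6 leukocyte miRNAs listed were members, with 1.11, 1.70 and 3.61 on P4 arrays, against 0.73, 1.01 and 0.86 on P5 arrays. Within this list miR-142-3p, miR-142-5p, miR-150-5p and miR-155-5p were highest on replicate 3, whereas miR-223-3p (scaled log2 -2.20, -2.54 and -2.57) and miR-146a-5p (-3.16, -2.92 and -3.24) were lowest there. Of 5 mesenchymal miRNAs 3 were members (no P4 array detected miR-127-3p or miR-214-3p), with 1.06, 1.46 and 2.99 on P4 arrays, against 0.13, 0.16 and 0.13 on P5 arrays. In the summed level of these 3 lists replicate 3 was highest and replicate 1 lowest among P4 arrays. Skeletal muscle miRNAs had the opposite order, with 0.79, 0.58 and 0.47 on P4 arrays, against 0.03, 0.02 and 0.02 on P5 arrays. There miR-1a-3p had 90.5, 147.0 and 83.8 before scaling on P4 arrays and miR-206-3p was detected on none. Of 5 luminal miRNAs 3 were members, with 2.91, 3.16 and 1.74 on P4 arrays, against 13.1, 10.8 and 11.6 on P5 arrays, while miR-210-3p was on no P4 array and miR-375-3p on no array of either population. The red cell miRNA miR-451a was detected on 2 P4 arrays and miR-144-3p on none. The neuronal miR-9-5p and miR-124-3p and the liver miRNA miR-122-5p were on none either. The part of other cells in the levels of miR-126, miR-142, miR-150, miR-199 and miR-133 was not tested.

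Detection overlapped widely with P5. Of the 309 members 293 were detected on all 3 P5 arrays, 5 on 2, 2 on 1 and 9 on none. The 9 were miR-204-5p, miR-211-5p, miR-1a-3p, miR-143-5p, miR-338-3p, miR-139-5p, miR-218-5p, miR-133a-3p and miR-133b-3p. Conversely 61 miRNAs were detected on all P5 arrays but not all P4 arrays, and 14 of them on no P4 array. miR-210-3p, induced by low oxygen, was one of the 14, with 1.4, 4.8 and -0.6 on P4 arrays, against 82.3, 58.8 and 38.5 on P5 arrays.

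Among the 293 miRNAs on all 6 arrays, ranks by signal did not overlap between populations for 130 (44.4%), and 13 of the 20 brightest in P4 were among the 20 brightest in P5. Places gained in P4 were largest for miR-145a-3p, at ranks 99, 106 and 115 on P4 arrays against 285, 288 and 288 on P5 arrays. miR-199a-3p, miR-222-3p, miR-143-3p and miR-150-5p came next. miR-143-3p stood at 10, 9 and 14 on P4 arrays, against 114, 123 and 137 on P5 arrays. Places lost were largest for miR-203-3p, which restrains p63 in skin, at 243, 215 and 275 on P4 arrays against 94, 96 and 117 on P5 arrays. miR-148b-3p, miR-148a-3p, miR-30a-3p and miR-18a-5p followed. The scaled levels of these 10 passed limma's test, as did those of 27.8% of all miRNAs tested. A fit of the 293 alone called 71. The 10 were picked by rank change on the same arrays, so their calls are no separate evidence. The call for miR-18a-5p was lost in 7 of 16 alternatives, that for miR-150-5p with the row block (adjusted p = 0.066) and that for miR-30a-3p with normexp (0.227).

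The detection rule has a soft edge. The brightest miRNAs just outside it, detected on 2 P4 arrays, were miR-450a-5p with 10.7, 34.4 and 40.0, miR-3544-3p with 17.1, 41.1 and 12.3 and miR-190a-5p with 10.4, 32.1 and 23.8. The dimmest inside it were miR-875-3p with -0.1, 4.5 and 4.6, miR-691 with 0.7, 8.0 and 11.4, miR-711 with 1.7, 6.3 and 13.5, miR-1186b with 5.8, 11.5 and 8.3 and miR-3092-5p with 6.2, 11.8 and 10.9. Members and other miRNAs thus mix below about 40 units.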

How the data were processed

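Per the labels' protocols, RNA enriched for small RNA was labelled at its 3′ end with Cy3-pCp and hybridised to Agilent mouse miRNA arrays. The intensity values (processed signal) are the authors' deposited scanner output. Per the file headers the software was Feature Extraction by Agilent at version 11.0.1.1, and per the submitters' processing notes version 11.0. The deposited series table holds log2 values of the same arrays, centred per row by an unstated constant, and served only as an alternative. All 6 arrays lay on 1 slide in 1 scan, with the P4 arrays and P5 replicate 1 in its first row.

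Control and outlier-flagged spots (1536 to 1746 of 49880 miRNA spots per P4 array) were left out, no miRNA spot was saturated, and spots were averaged per probe and then per miRNA. Detected miRNAs numbered 325, 384 and 368 on P4 arrays and 416, 419 and 367 on P5 arrays. The members' summed signal was 189343, 313563 and 260790 on P4 arrays, and the small number of arrays limits precision.

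Signals were divided by the 75th percentile of miRNAs detected on all 6 arrays, floored at 0.0223 (95th percentile of undetected signal) and taken as log2. limma 3.58.1 in R 4.3.3 tested 370 miRNAs, 307 families and 44 arm ratios, with Benjamini-Hochberg adjustment over each. Tested on simulated data of 370 miRNAs, the fit recovered 68.3% of log2 differences of 1 and 95% of 2. Normexp used median spot signals, since the deposited files hold no mean, with an offset of 50 and no floor. Shares were compared with exact permutation tests (scipy 1.17.1).

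Members, lists and comparisons were chosen with earlier results of these data known. Named miRNAs were the 20 brightest members, the 5 markers, large and called families, extremes of arm ratio, spread, rank change and signal, and all listed miRNAs of other cell types; those shown with sequences or as examples beyond these were chosen after their values were seen.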

Additional observations from a re-analysis of the deposited data

How the results depend on the processing

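With normexp the top 10 held 65.3% of P4 signal, the top 20 held 73.9% and the 5 largest families 60.6%. Among members numbered up to 1000, an alternative chosen after seeing the data, these were 38.3%, 57.5% and 40.4%, the largest family held 18.7%, and 15.7 members gave 50%. Detection on 2 of 3 P4 arrays, Agilent's summed signal and all positive signal as denominator kept these summed shares within the replicate SD and these counts within 1.5-fold; of the 20 brightest members' own shares, 19 stayed within it with all positive signal and 17 with normexp.

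Per miRNA, 103 calls became 52 with the array's slide row as a block. Per seed family, 70 became 33 with the row block and 45 over miRNAs detected on all 6 arrays. Among arm ratios, 8 became 18 with normexp, 15 with double the floor, 15 with the replicate block, 3 with the row block and 1 over arms detected on all 6 arrays. Of 37 named differences the row block lost 11 (families of miR-200a-3p, miR-23a-3p, miR-195a-5p and miR-30c-5p, miR-150-5p, miR-18a-5p, and arm ratios of miR-143, miR-150, miR-340, let-7b and miR-191). With the row block each difference sets the P4 arrays against P5 replicate 1 alone, the only P5 array in their row. A call lost there does not show an effect of row, and the causes were not tested. Whether replicate numbers pair the samples is not settled. Same-numbered deviations correlated at -0.07, 0.37 and 0.09 over 370 miRNAs, and unlike-numbered ones at -0.42 to 0.22. Deviations from a mean of 3 arrays are tied to one another, so these values cannot decide it. The replicate block gave 111 calls per miRNA and 66 per family, and of 37 named differences it lost that of the miR-15/16/195 family.

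Leaving out 1 array in turn gave 85 to 113 calls per miRNA, 53 to 76 per family and 5 to 14 per arm ratio, the arm ratios lowest without P4 replicate 2 and highest without P5 replicate 3. Without 1 P4 array, the top 10 held 69.7% to 71.5%, the top 20 held 78.7% to 80.2%, the largest family 23.6% to 25.9% and the 5 largest 64.7% to 66.0%, and 310 to 353 miRNAs were members. The P4 minus P5 difference in share was 3.43 to 5.96 points for the top 10 and 2.75 to 4.78 for the top 20.

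Reversed differences were those of the miR-26 family (-0.41 without scaling, -0.0079 with quantile normalization, -0.046 with the summed signal), the miR-15/16/195 family (-0.18 without scaling) and the arm ratios of miR-143 (4.79 with Agilent's summed signal, 5.12 in the authors' processed values) and miR-340 (0.057 and 0.11 in the same order), where 1 arm is undetected. Authors' processed values could not be summed over families, and 1 slide allowed no slide block. Single values rest on 3 arrays per population, and miRNAs below about 40 units move in and out of detection.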
